A study of Drosophila melanogaster with 4 samples.

Results

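Pumilio, Boule, Brat, Nanos, Orb, FMRP and Staufen are RNA-binding proteins that decide when and where an mRNA is translated, and the data described here are the levels of their own transcripts in LARK immunoprecipitates (IP) and in total RNA of the Drosophila brain. The set lists 7 genes: pum, bol, brat, nos, orb, Fmr1 and stau. Of these, 6 have at least 1 probe set annotated to them alone, which gives 9 probe sets of 13966 on the array, and nos was not analysed here. The genes were chosen by their role and with the IP over total RNA signals of these same 4 arrays known, so their ratios are given as a description, without a test.

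LARK is itself an RNA-binding protein with RNA recognition motifs and a zinc finger. The samples come from the wild-type strain Canton-S at the pharate adult stage, when the fly is about to leave the pupal case. Brains were dissected by hand and lysed, and an affinity-purified antibody was used to pull down LARK with its bound RNA. Each of the 2 experiments used around 1000 brains and gave a LARK IP sample and, set aside from the same lysate, a sample of total RNA, each hybridised to 1 Affymetrix array, so that each group held 2 arrays. Precipitation was followed by very mild washing, and the same amount of RNA was labelled from IP and from total RNA. The comparison is therefore between LARK IP and total RNA of 1 lysate, and no array of a precipitation without the antibody was analysed here. As the brains were lysed whole and pooled, the cell types that gave a signal cannot be told apart.

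As background, Pumilio is a PUF-family protein that binds a short element in the 3′ untranslated region of its target mRNAs and recruits deadenylases that silence them. Nanos and Brat act with it on the hunchback mRNA of the embryo, and Brat also restrains the self-renewal of larval neuroblasts. In neurons Pumilio is known for its control of dendrite shape, of the neuromuscular synapse and of the sodium channel gene para. Orb is the germline member of the CPEB family, which regulates translation through cytoplasmic polyadenylation. FMRP, encoded by Fmr1, is the fly counterpart of the fragile X protein and represses translation at synapses. Staufen binds double-stranded RNA and carries mRNAs such as oskar and bicoid in the oocyte and prospero in neuroblasts, while Boule belongs to the DAZ family and is required for male meiosis.

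The values are MAS5 signals, each scaled on its array to a common target intensity, with a median of 2.7 to 2.8 per array. A signal was called above background where it exceeded the 90th percentile of 95 probe sets for odorant receptors, gustatory receptors and accessory gland proteins on the same array, which was 5.0 and 5.12 on LARK IP 1 and 2 and 3.88 and 6.36 on total RNA 1 and 2. Of the 9 probe sets, 4 were bright enough to enter the fit across the 3492 probe sets with the highest mean signal: those of pum, 1 of bol and both of stau. Of 7 neuronal markers, which check the labelled tissue, 6 had a probe set and 5 were above background on at least 1 array, with summed signals of 54.3 and 72.9 in the IP samples, against 24.3 and 54.8 in total RNA. The neuronal sum was thus higher in IP in both experiments, by more in the first, but not every marker followed it. Rbp9 read lower in IP in both experiments. In the first, nSyb was lower in IP, at 5.7 against 6.9 in total RNA. In the second, brp was lower in IP, with both signals under background. The glial sum (5 of 6 genes) was 88.2 and 61.5 in the IP samples, against 89.2 and 52.6 in total RNA, and in IP most of it came from Gs2, at 65.9 and 35.5 in the IP samples, against 48.8 and 16.3 in total RNA. The dimmer glial genes Gat, wrapper and moody all read lower in IP in both experiments. Gat was at 5.1 and 0.9 in the IP samples, against 12.3 and 7 in total RNA. In the second experiment wrapper and moody were under background in IP and in total RNA, so their direction there cannot be read. The glial gene repo, above background on all 4 arrays, was level, at 14.3 and 23.3 in the IP samples, against 14.9 and 22.5 in total RNA. The photoreceptor sum (4 of 6 genes) was lower in IP in both, at 82.5 and 117.3 in the IP samples, against 96.6 and 174 in total RNA. Of these genes 3 were lower in both experiments, but trpl was higher in IP in the first, at 36.4 against 27.6 in total RNA. Markers of other tissues were detected too, each above background on at least 1 array. The muscle sum (3 of 5 genes) was 44.3 and 30.5 in the IP samples, against 43.6 and 32.1 in total RNA, most of it from Mlc2. The fat body sum (4 of 5 genes) was 16.7 and 20.6 in the IP samples, against 24.4 and 42.1 in total RNA. The part of these markers in the ratios given here was not tested. Germline markers, which matter because bol, orb and nos are best known from the germline, summed to 14.8 and 3.0 in the IP samples, against 8.3 and 7.4 in total RNA, and 4 of the 5 were under background on all 4 arrays.

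The probe set of pum and the brighter of 2 for bol had higher signals in both LARK IP samples than in either total RNA sample, with a far larger gap between the experiments for pum. The second probe set of bol was not higher in IP. The stau probe sets also disagreed, 1 being level between IP and total RNA and the other higher in IP in the first experiment by far more than in the second. The transcripts of brat, orb and Fmr1 lay at or near background, so that nothing can be read about their presence in LARK complexes. These signals are shown for all 9 probe sets in the plot of signals on the 4 arrays.

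**Figure D1:**
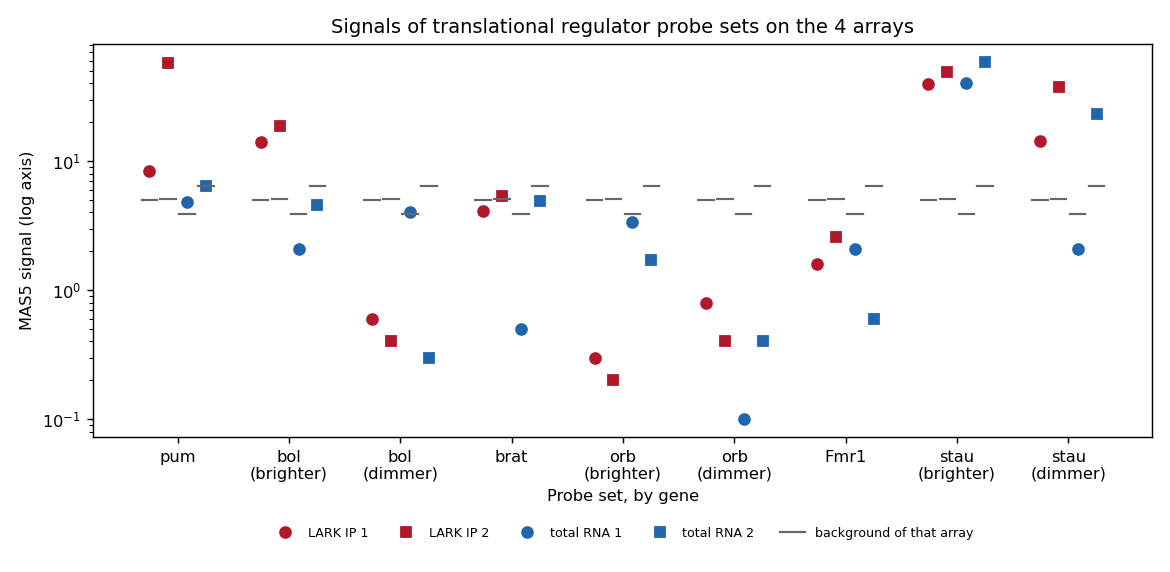
MAS5 signal (log axis) of each probe set of pum, bol, brat, orb, Fmr1 and stau on the 2 LARK IP arrays (red) and the 2 total RNA arrays (blue), with circles for replicate 1, squares for replicate 2 and a grey dash for the background of that array. Where a gene has 2 probe sets, the one with the higher mean log2 signal is called brighter. Both IP points lie above both total RNA points for pum and the brighter probe set of bol, and both probe sets of orb and that of Fmr1 stay under background on every array.

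For pum (CG9755, probe set 143315_at), the signals were 8.4 and 57.3 in the LARK IP samples, against 4.8 and 6.4 in total RNA. All 4 were above background, by a narrow margin in total RNA 2. The name rests on the platform annotation: the study's target list sets this probe set beside Eip75B, and pum beside another probe set, which the annotation gives to CG7029. The CG7029 signals were 0.9 and 7.8 in the IP samples, against 1.3 and 0.9 in total RNA, of which LARK IP 2 alone exceeded background. With no probe sequences at hand, neither assignment was tested. The groups did not overlap, yet a single array, LARK IP 2, carried most of the difference. On the log2(signal + 0.8) scale, on which all log2 ratios here were computed and which understates the changes of low signals, the ratio was 0.72 in replicate 1 and 3.01 in replicate 2, a mean of 1.86 ± 1.62 (SD, n = 2). The plain ratios were 1.75-fold and 8.95-fold. The spread between the experiments was thus almost as large as the mean.

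The disagreement for pum lay on the IP side. LARK IP 2 was 6.82-fold above LARK IP 1, and only 1.09% of the tested probe sets differed as much between these arrays in either direction. Total RNA 2 was 1.33-fold above total RNA 1, and 61.3% of the tested probe sets differed at least that much. Without LARK IP 2 the log2 ratio was 0.53, and without LARK IP 1 it was 3.19.

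The closest genes to pum among 2883 others tested, by Euclidean distance between the pairs of log2 ratios of the 2 replicates, were the uncharacterised CG6321 (distance 0.18), CG3793 (0.28) and CG16772 (0.43). Their high ratio in replicate 2 came with a low denominator: total RNA 2 read 0.8 for CG6321, 0.3 for CG3793 and 1.2 for CG16772, all under background, while their LARK IP 2 signals were 13.4, 9.0 and 11.2. For pum it came with the high IP signal of 57.3.

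For bol (CG4760, probe set 143637_at), the signals were 14.1 and 18.6 in the LARK IP samples, against 2.1 and 4.6 in total RNA. Both IP signals lay among the top 15% of their array, whereas both total RNA signals were under background. The groups were clearly apart, and the lowest IP signal was 14.1 against a highest total RNA signal of 4.6. The log2 ratio was 2.36 in replicate 1 and 1.85 in replicate 2, a mean of 2.10 ± 0.36 (SD, n = 2). Since the total RNA signals were not above background, this probe set is best given as at least 2.94-fold higher in IP. That bound holds for the mean of the 2 experiments, not for each of them.

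With any 1 array left out, the ratio of bol lay between 1.65 (no total RNA 1) and 2.55 (no total RNA 2). Its sign could not change, since both IP signals lay above both total RNA signals. It was 1.59 with 4 times the pseudocount. A second probe set of bol (151300_at) did not show the enrichment: it read 0.6 and 0.4 in the IP samples, against 4.0 and 0.3 in total RNA, with total RNA 1 alone above background. Which part of the transcript each probe set detects is not given in the sources used here.

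The genes closest to bol in their pair of measured ratios were CG3168, TMEM216 (CG8116) and rgn (CG6014). As the denominators of bol were under background, its ratios are not exact and no distance is given. CG3168, for instance, read 67.9 and 82.1 in the IP samples, against 14.0 and 23.4 in total RNA. Unlike bol, these 3 were bright in total RNA as well, with signals from 9.9 to 29.2.

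The stau gene (CG5753) was measured by 2 probe sets. The brighter (142592_at) read 39.6 and 49.3 in the LARK IP samples, against 40.2 and 58.8 in total RNA, so that the groups overlapped and each experiment gave a ratio close to 1. The log2 ratio was -0.02 in replicate 1 and -0.25 in replicate 2, a mean of -0.14 ± 0.16 (SD, n = 2). Its sign depended on the arrays used, with -0.41 without total RNA 1 but 0.13 without total RNA 2.

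The other probe set of stau (151638_s_at) read 14.3 and 37.2 in the LARK IP samples, against 2.1 and 23.2 in total RNA. In each experiment the IP signal was the higher, but LARK IP 1 lay below total RNA 2, so that the groups overlapped. The log2 ratio was 2.38 in replicate 1 and 0.66 in replicate 2, a mean of 1.52 ± 1.21 (SD, n = 2). The total RNA 1 signal was under background, so the ratio of replicate 1 is not exact, whereas total RNA 2 was well above background. Without total RNA 1 the ratio was close to 0 (-0.0028), whereas leaving out total RNA 2 gave 3.05. The suffix _s_at marks, in the naming of the array's maker, probe sets that can match more than 1 transcript.

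The genes nearest to stau, taken by its brighter probe set, were CG8389, Ids and cyp33, all within a distance of 0.02 and all with ratios near 0. Such genes are common, since the median log2 ratio of the tested probe sets was -0.04.

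**Figure D2:**
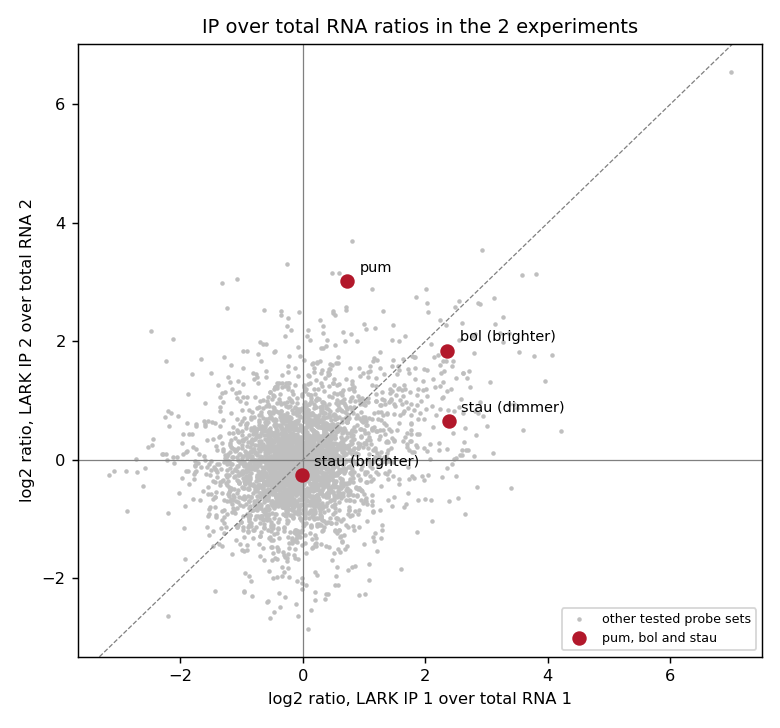
Log2 ratio of LARK IP over total RNA in replicate 1 (x axis) and replicate 2 (y axis) for the 3492 tested probe sets (grey) and the 4 tested probe sets of pum, bol and stau (red), on the log2(signal + 0.8) scale. The dashed line marks equal ratios. Of the 4, bol lies at a high ratio in both, at 2.36 and 1.85 with total RNA signals under background, with pum far above the line and the dimmer stau probe set below it.

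As the plot of the ratios shows, the 4 probe sets lie in different places among all those tested. Of the tested probe sets, 14.4% had a ratio in replicate 1 at least as high as that of pum, but 0.286% in replicate 2. For bol these shares were 2.0% and 2.23%, and for the dimmer stau probe set 1.95% and 16.8%. Both shares of bol and the share of stau in replicate 1 are not exact, since their total RNA signals were under background. A plain ratio of at least 2 was found for 2 of the 4 in replicate 1 and for 2 in replicate 2, where 11.0% and 10.6% of all tested probe sets had one. In both replicates it was found for bol alone of the 4, against 3.87% of all tested. The IP signals were both above the total RNA signals for 2 of the 4, pum and bol, against 15.4% of all tested. These counts come from the values with which the genes were chosen, and nothing is read from them.

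Of the 3492 probe sets, limma with Benjamini-Hochberg adjustment called 94 higher and 6 lower in IP, 2.69% and 0.172%. Calls are not read for the 4 probe sets, whose genes were chosen with these values known. No call held without the replicate block, which takes in both the shared lysate and the shared day of hybridisation. These cannot be told apart. Without the block 0 probe sets were called by limma in either direction, while 137 were higher and 38 lower where p was left unadjusted, at 0.05. With the block kept but no variance trend, 1 was called higher and 0 lower.

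**Figure D3:**
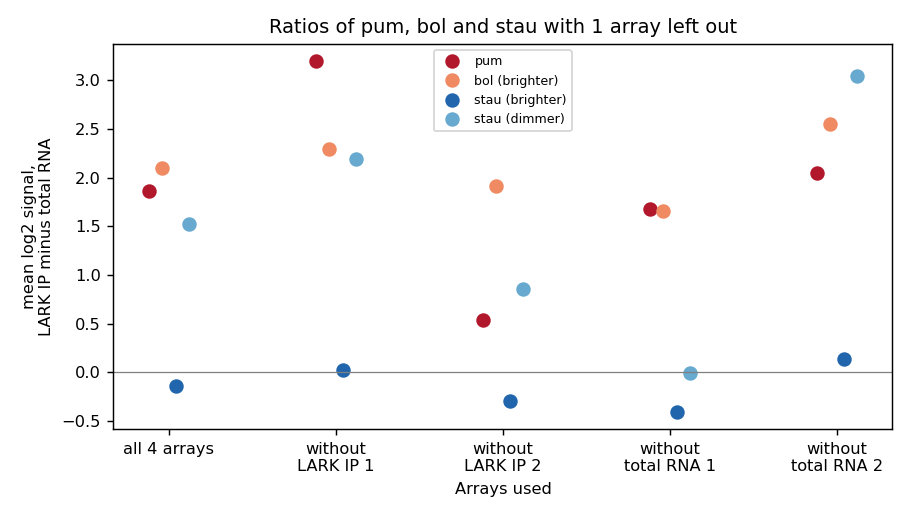
Mean log2 signal in LARK IP minus that in total RNA for the 4 tested probe sets of pum, bol and stau, with all 4 arrays and with each array left out (x axis); each point is 1 probe set. The value of bol stays between 1.65 and 2.55, that of pum drops to 0.53 without LARK IP 2, and that of the dimmer stau probe set drops to -0.0028 without total RNA 1.

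The brat transcript (CG10719, 153872_at) was at the edge of detection, with 4.1 and 5.4 in the LARK IP samples, against 0.5 and 4.9 in total RNA. Only LARK IP 2 exceeded background, and in that experiment IP was 1.10-fold of total RNA. The plain ratio of replicate 1 rests on a total RNA signal of 0.5 and is not given. The groups overlapped.

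For orb (CG10868), 1 probe set (142731_at) read 0.3 and 0.2 in the IP samples, against 3.4 and 1.7 in total RNA, and the other (151666_s_at) 0.8 and 0.4 in the IP samples, against 0.1 and 0.4 in total RNA. For Fmr1 (CG6203, 144251_at) the signals were 1.6 and 2.6 in the IP samples, against 2.1 and 0.6 in total RNA. All 12 of these signals were under background, and no ratio is given. A transcript that is present but poorly detected by its probe set would look the same.

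Apart from these genes, 101 genes in 6 lists were looked up: the machinery of repression, deadenylation and decapping, mRNA localisation and transport, partners of FMRP and of neuronal RNA granules, cytoplasmic polyadenylation, mRNAs known as targets of the 7 proteins, and germline genes. A probe set was found for 82 of them, and 26 were bright enough to be tested. As the lists were chosen with earlier results of these data known, counts and p-values of list genes are description, not independent evidence. Of the 26, 2 rose in LARK IP (gw and futsch) and 0 fell, against 75 higher (2.60%) and 5 lower (0.173%) of 2884 genes tested with 1 probe set each. At an unadjusted p under 0.05 in limma, 7 of the 26 were higher and 2 lower, against 212 and 114 of the 2884. Their median log2 ratio was -0.06, beside -0.04 for all genes tested. The ratio was positive in both replicates for 8 of the 26 and negative in both for 9, against 758 and 900 of the 2884.

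Of the 7 tested genes of repression, deadenylation and decapping, 1 rose and 0 fell, with a median log2 ratio of 0.01. The gene that rose was gw (CG31992), which encodes GW182, the Argonaute partner that recruits deadenylases in microRNA silencing. Its signals were 55.8 and 104.4 in the IP samples, against 17.4 and 49.1 in total RNA, ratios of 1.64 and 1.08 on the log2 scale (mean 1.36 ± 0.40 SD, n = 2; adjusted p = 0.0254). Both IP signals lay above both total RNA signals, by a small margin, as they did for 15.4% of all tested probe sets. The call was lost without the replicate block (adjusted p = 0.950), with quantile normalization (adjusted p = 0.165) and without a variance trend (adjusted p = 0.351), and the ratio was 0.63 without total RNA 1, against 2.08 without total RNA 2. A second probe set of gw was under background on all 4 arrays.

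The other genes of this list did not pass. PAN3, a subunit of a deadenylase, read 19.1 and 44.2 in the IP samples, against 1.8 and 26.1 in total RNA, log2 ratios of 2.94 and 0.74 (adjusted p = 0.109). That is the same kind of pattern as the dimmer stau probe set, with a total RNA 1 signal under background. Its partner PAN2 was too dim to be tested and read 2.9 and 1.2 in the IP samples, against 9.5 and 8.8 in total RNA. On the mean of the 2 experiments PAN2 was at least 1.70-fold lower in IP (it was picked out after its values were seen). Pop2, the CAF1 deadenylase that Pumilio binds, read 12.6 and 14.3 in the IP samples, against 20.5 and 21.7 in total RNA (mean log2 ratio -0.62, adjusted p = 0.482), and Rga, another subunit of the same complex, had -0.09 (adjusted p = 0.970).

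Of the 8 tested genes of mRNA localisation and transport 0 passed in limma (without adjustment, at 0.05, 2 were higher and 1 lower), and their median log2 ratio was -0.68. Values after ± are the SD over the 2 replicates here and in what follows. The highest were Syp (1.18 ± 0.81, adjusted p = 0.360), which encodes the RNA-binding protein Syncrip, and rin (1.02 ± 0.91, adjusted p = 0.360), which encodes the stress granule protein Rasputin. The lowest were tud (-1.20 ± 1.88, adjusted p = 0.534), a Tudor-domain gene of the germ plasm, and glo (-0.99 ± 0.67, adjusted p = 0.263), an hnRNP that binds nanos mRNA. For tud the 2 experiments went in opposite directions, at 0.13 and -2.53.

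Among the dimmer genes of this list, BicD is singled out after its values were seen. It encodes a dynein adaptor that moves mRNAs, though the name again rests on the platform annotation, since the study's target list sets this probe set beside CG13393. Its signals were 12.6 and 13.9 in the IP samples, against 2.1 and 0.5 in total RNA, both of the total RNA signals under background. On the mean of the 2 experiments BicD was thus at least 2.42-fold higher in IP. Its mean signal was too low for the fit. With 4 times the pseudocount PAN3 was called (adjusted p = 0.0251), and BicD entered the fit and was called as well. That call of BicD is not read as support, since the gene was picked on its values and was above background in IP alone.

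Of the 4 tested genes among FMRP partners and neuronal RNA granules 0 passed in limma (without adjustment, at 0.05, 1 was higher and 1 lower), with a median log2 ratio of -0.37. The highest was vig (1.19 ± 0.30, adjusted p = 0.256), which encodes a protein found with FMRP in RNA interference complexes, at 16.4 and 12 in the IP samples, against 5.7 and 5.7 in total RNA. The lowest was TBPH (-1.05 ± 0.23, adjusted p = 0.240), the fly TDP-43, at 11.3 and 6.1 in the IP samples, against 21.6 and 15.2 in total RNA, followed by loqs (-0.69 ± 0.18, adjusted p = 0.460), a partner of Dicer. Atx2, the fly ataxin-2, had -0.06 (adjusted p = 0.991). Both IP signals of vig lay above both total RNA signals, as they did for 15.4% of all tested probe sets. For TBPH both lay below, a pattern whose share over all tested probe sets was not computed.

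The CPEB gene orb2, which acts in long-term memory and is the neuronal relative of orb, was too dim to be tested. It is also singled out after its values were seen: the signals were 1.0 and 18.1 in the IP samples, against 0.5 and 0.7 in total RNA, of which LARK IP 2 alone exceeded background. As with pum, the only array that stood out was LARK IP 2. The study's target list likewise sets this probe set beside another gene, Mmp1, and orb2 beside a probe set that the annotation gives to Sh3beta.

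Of 9 genes of cytoplasmic polyadenylation and cleavage with a probe set, Pabp2, the nuclear poly(A)-binding protein, was the only one tested and did not pass (-0.54 ± 0.03, adjusted p = 0.592). Among germline genes, 11 of 14 with a probe set were under background on all 4 arrays, and tud, given above, was the only one tested.

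Of 6 tested mRNAs known as targets of the 7 proteins, 1 rose and 0 fell, with a median log2 ratio of 0.22. It was futsch (CG34387), the microtubule-associated protein whose mRNA FMRP represses, at 45.3 and 95.9 in the IP samples, against 10.6 and 52.3 in total RNA, log2 ratios of 2.02 and 0.86 (mean 1.44 ± 0.81 SD, n = 2; adjusted p = 0.0470). LARK IP 1 lay below total RNA 2, so the groups overlapped. The ratio was 0.33 without total RNA 1, and the call was lost without the replicate block (adjusted p = 0.950), with the top 15% filter (adjusted p = 0.0739), with quantile normalization (adjusted p = 0.233) and without a variance trend (adjusted p = 0.374). For this probe set too the study's target list gives another name, CG14775. Another 2 probe sets of futsch were under background on all arrays. The next highest was pros (0.70 ± 1.0, adjusted p = 0.674), whose mRNA Staufen carries in neuroblasts. The lowest were CycB (-0.27 ± 0.13, adjusted p = 0.891), a target of Pumilio and Nanos, and eIF4E1 (-0.06 ± 0.42, adjusted p = 0.970), a target of Pumilio at the neuromuscular junction. The classic Pumilio targets hb and para were under background on all 4 arrays.

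**Figure D4:**
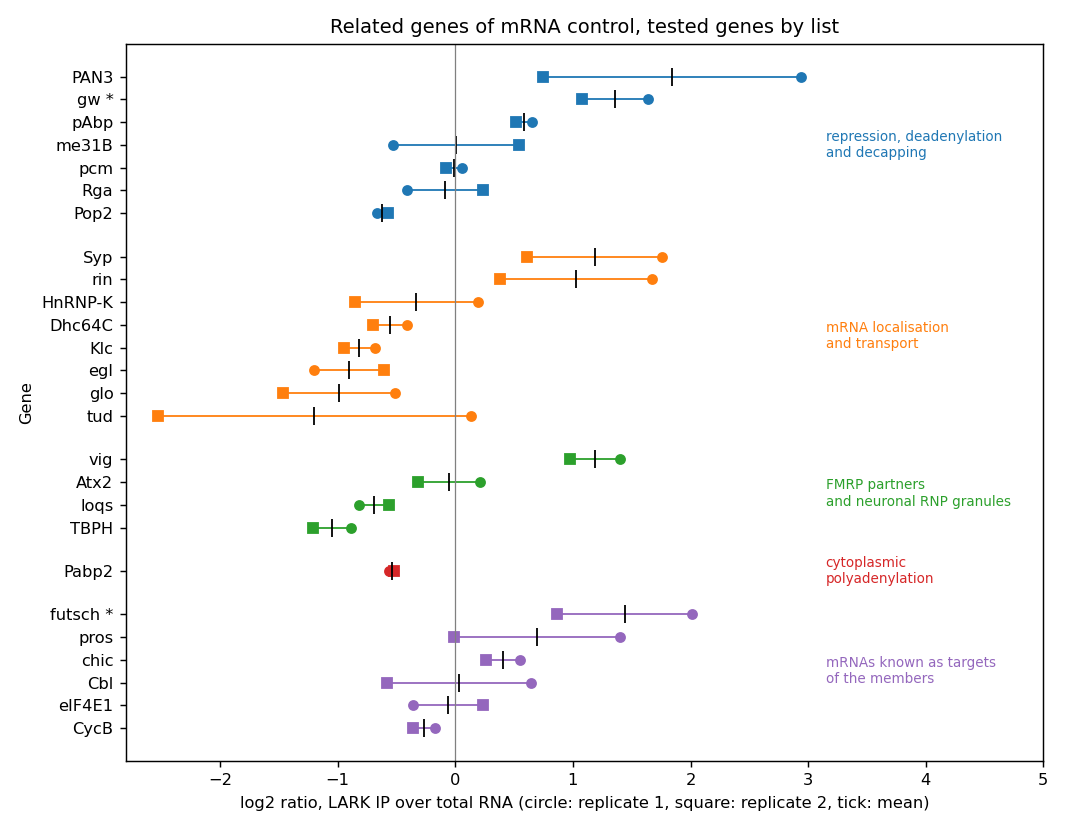
Log2 ratio of LARK IP over total RNA for the 26 tested genes of the lists on mRNA control, coloured by list, with replicate 1 as a circle, replicate 2 as a square and their mean as a tick; an asterisk marks an adjusted p under 0.05 in limma. Both genes with an asterisk, gw and futsch, have positive ratios in both replicates, and the genes of localisation and transport fall mostly left of 0. The gene tud belongs to 2 lists and is drawn once.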

How the data were processed

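The authors computed the deposited probe set intensity values (signals) with MAS5 at default settings and scaled each array to 1 target intensity; no background correction or scaling was added here, detection calls were not used, and a genome build is not given in the sources used here. Columns were matched to samples by accession and samples to groups by title. Arrays of 1 replicate number were hybridised on the same day. Of 14010 probe sets, 44 controls were left out; the platform annotation gave 1 symbol for 12443 of the rest, several for 327 and none for 1196, and names were checked against RefSeq symbols of assembly Release 6. The members and lists were chosen with earlier results of these data known.

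Ratios were computed on log2(signal + 0.8), 0.8 being the median 25th percentile signal. The 3492 probe sets in the top 25% of mean log2 signal were fitted with limma 3.58.1 (R 4.3.3; lmFit, eBayes with a variance trend), with the replicate number as a block because IP and total RNA of 1 number share a lysate, and two-sided p-values adjusted by Benjamini-Hochberg at 0.05. Between the arrays of IP and of total RNA, the replicate differences correlated across tested probe sets (Pearson's r 0.36). The fit has 1 residual and 7.84 prior degrees of freedom. It was also run on simulated data whose noise was drawn from its own variances, so that run cannot check those variances. There it called 36.6% of log2 changes of 1, 97% of changes of 2 and 0.27% of unchanged probe sets. An exact permutation test of 2 arrays against 2 that ignores the pairing cannot go below p = 0.33, and keeping the pairs leaves fewer arrangements still. The number of arrays thus limits the precision. Where both arrays of a group were under background and both of the other above it, the bound sets the mean of the bright group against the dim group's background or own signal, whichever is higher. For a gene with several probe sets in a list, the one with the highest mean log2 signal was used. Pop2, TBPH and Pabp2 each had 1 other probe set, which is not given here. Named were all probe sets of the members, list genes that passed, the 2 highest and 2 lowest tested genes per list, and for tested members the 3 genes with the nearest ratios; others are marked in the text. The alternatives were other pseudocounts, filters and scaling, no variance trend, no replicate block, and each array left out.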

Additional observations from a re-analysis of the deposited data

How the results depend on the processing

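The limma calls depended on the fit. Against 94 probe sets higher and 6 lower, there were 0 and 0 without the replicate block, 1 and 0 without a variance trend, 11 and 0 with quantile normalization, 63 and 0 among the top 15% of probe sets, 133 and 18 with 4 times the pseudocount, and 0 and 0 when a single array was dropped, in fits that had no block and assumed that the lone array varied like the other group (46 to 226 higher and 19 to 72 lower where p was left unadjusted, at 0.05). Where the adjusted number lower was 0, the unadjusted one was 38 without the block, 115 without the trend, 170 with quantile normalization and 115 with the top 15% filter. Of the list genes, 2 were higher in the fit as reported, 0 without the replicate block, without the trend, with quantile normalization or when a single array was dropped, 1 with the top 15% filter (gw; futsch was lost) and 4 with 4 times the pseudocount. Called numbers of list genes lower were 0 under every setting tried. Without a pseudocount and with no filter, counts of probe sets stayed within 1.5 times those reported. The cause of the lost calls was not tested, except that settings with 3 arrays cannot hold the block.

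For the 4 tested probe sets of pum, bol and stau, 25 of 32 alternative values lay within 1 SD of the reported log2 ratio and 7 beyond it, and 3 changed sign, all of stau: the brighter probe set without LARK IP 1 (0.02) and without total RNA 2 (0.13), and the dimmer one without total RNA 1 (-0.0028). The replicate block does not move these means but moves their SD, which for bol was 0.27 without it. With quantile normalization the ratios were 1.83 for pum, 2.14 for bol, and -0.30 and 1.5 for stau. Signals near background limit what can be said of brat, orb and Fmr1.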
